A study of Danio rerio with 6 samples.

Results

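Zebrafish embryos exposed to SB505124 from sphere stage were compared at 7-somite stage with embryos exposed from 30% epiboly. The comparison used 2 of the 6 samples of the series and all 13321 transcript records of the deposited table, with no record chosen by its value. SB505124 is a small molecule that blocks the type I receptors through which Nodal, activin and TGF-beta signal. The labels give no allele, strain or transgene for either 7-somite group, and both groups received the inhibitor. They differed in its start: late blastula (sphere) in the embryos called sphere-treated here, and a later blastula stage in the embryos called epiboly-treated. No untreated group was analysed here, so "higher" and "lower" refer to the earlier start relative to the later one. The other 4 samples, both onsets frozen at shield or tailbud stage, served only to show where the 7-somite comparison differed. Each sample held 30 to 60 whole embryos.

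Nodal ligands act at the margin of the blastula and induce mesoderm and endoderm there. How early and how long a margin cell receives the signal affects its fate, and the prechordal plate, which later forms the hatching gland, and the endoderm are among the fates that need it most. At 7-somite stage the notochord, the first somites, the precursors of blood and heart and the neural keel, from which the neural tube forms, are all present. Transcripts of these tissues can therefore be compared at this stage. The title of the study names closure of the neural tube, a process that in zebrafish has been linked to the mesendoderm beneath the neural plate.

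Each value below is a group mean with its standard error on the authors' upper-quartile-normalized scale. The labels list 1 sample per group, but the spacing of the standard errors is that of 3 whole numbers, so n was taken as 3 per mean, by inference. The single values were not analysed here, so overlap between groups cannot be given, and p-values measure a spread that may be technical. A ratio is given as log2 of the sphere-treated over the epiboly-treated mean after adding 5 to each, a fold value is the same ratio unlogged, and both understate the change of low genes. A record was called when its Benjamini-Hochberg adjusted p over all records, from a test moderated with limma, was under 0.05. All means added up to 15988680 with the later start and 15311014 with the earlier one, and sequencing depth is unknown. Among records at a mean of 100 or more, the standard error was at the median 3.74% of the mean in epiboly-treated embryos and 4.73% in sphere-treated embryos. Of 11038 records at this level in both groups, 61.6% had the larger relative error in sphere-treated embryos.

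Subsets of the genes of hatching gland, notochord sheath, blood and pharyngeal mesoderm were far lower after the earlier start, and many genes of glycolysis and of the low-oxygen response were higher. Of the 13321 records, 787 were called higher in sphere-treated embryos (5.91%) and 1169 lower (8.78%). A size of 2-fold or more was reached by 79 of the higher records (0.593% of all) and by 113 of the lower ones (0.848%), and 14.7% of all records were called in either direction. The balance between the directions depended on the scaling: with both groups set to equal totals, 1161 records were called higher and 732 lower, while the median ratio of all records moved from -0.02 to 0.04. In 15 records the epiboly-treated mean was 100 or more and the sphere-treated mean 10 or less, and in 0 records was it the reverse.

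**Figure D1:**
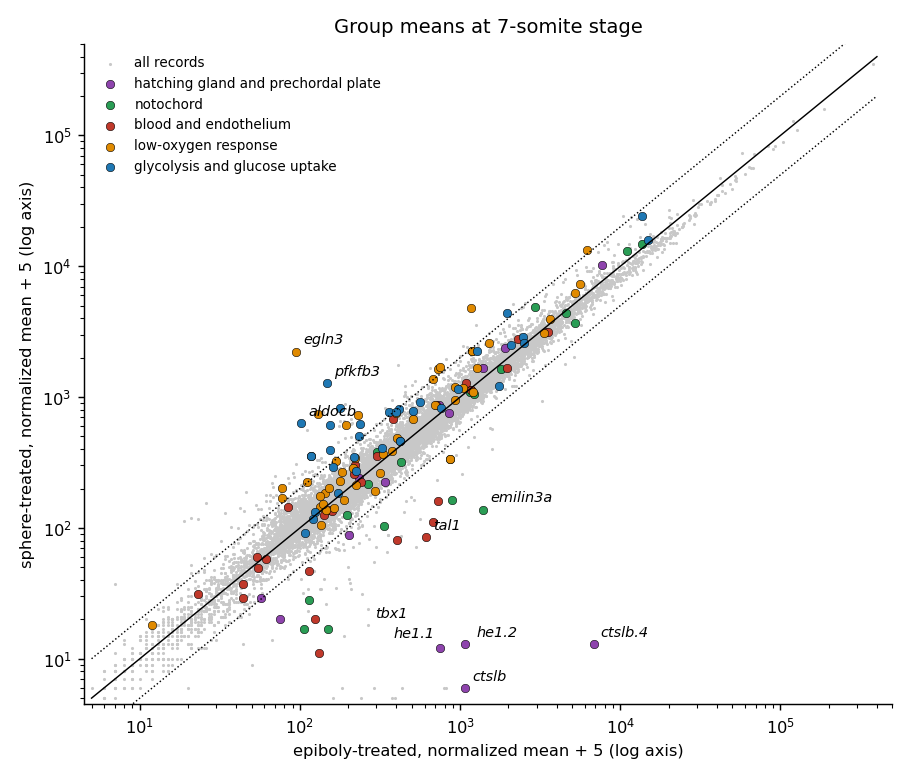
Group means at 7-somite stage, each with 5 added, in epiboly-treated embryos on the x axis and sphere-treated embryos on the y axis, both log axes. Each grey point is 1 of 13321 records, coloured points are members of 5 gene lists, the solid line marks equal means and the dotted lines 2-fold differences. Hatching gland genes such as ctslb.4 lie far below the lines, and egln3, pfkfb3 and aldocb lie above them.

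The hatching gland secretes the proteases that dissolve the egg envelope, and its protease genes had the lowest ratios of all records. The 13 records with the lowest ratios were he1.1 and he1.2, which code for hatching enzymes, and 11 records of a single gene block. Levels of ctslb.4, a cathepsin L gene, were 6808 ± 637 after the later start and 8 ± 4.49 after the earlier one (log2 ratio -9.03 ± 0.40, adjusted p = 6.7e-05). Its relative ctslb stood at 1071 ± 96.4 and 1 ± 1.0 (log2 ratio -7.49, adjusted p = 7e-06). The metalloprotease gene he1.2 had means of 1073 ± 123 and 8 ± 2.03, and he1.1 of 749 ± 82.3 and 7 ± 0.667 (log2 ratios -6.37 and -5.97). All 4 had means under 10 in sphere-treated embryos.

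In the RefSeq annotation of assembly GRCz12tu the 11 records, ctslb, ctslb.4 and MGC174155 among them, are neighbours on 1 chromosome, in a run of 17 protein-coding genes. All 11 genes of this run that are in the table were called lower, with log2 ratios of -9.03 to -4.92. Their means were 155 to 6808 after the later start and 0 to 8 after the earlier one. The 20 nearest records outside the run, 10 on each side, had log2 ratios of -0.41 to 0.94, with 3 called lower and 2 higher. The run was delimited by these 11 records, which were picked for their low ratios. Their calls and the contrast with the records outside are therefore no test. Genes of the run missing from the table could not be counted. Near-identical copies may share reads, so the values of single members of the run, and of he1.1 against he1.2, are uncertain. The next record in the ranking, tbx1, stood at -3.89. At tailbud the same 11 records ran from 19 to 1467 after the later and from 0 to 28 after the earlier start, and at shield none exceeded 15 in either group.

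Of the 16 measured genes of the hatching gland and prechordal plate list, 6 were called lower and 0 higher by limma (4 higher at an unadjusted p under 0.05), against 8.78% and 5.91% of all records. The median log2 ratio was -0.38, against -0.02 over all records. Besides the proteases, the called members were gsc, a homeobox gene of the organizer and prechordal plate (70 ± 5.69 against 15 ± 4.1, log2 ratio -1.91, adjusted p = 0.0102), and the Wnt receptor gene fzd8b (198 ± 10.1 against 84 ± 1.0, log2 ratio -1.19). The other 10 members lay between -0.97 and 0.40 and were not called. In whole embryos fewer cells of a type and less RNA per cell cannot be told apart, which applies to every tissue below.

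Several genes of heart, pharyngeal and lateral plate mesoderm were lower. Of 13 measured, 6 were called lower and 1 higher, against 8.78% and 5.91% of all records, with a median log2 ratio of -0.60. The other 6 lay between -0.62 and 0.42 and were not called, and 5 of the 13 ratios were above 0. The T-box gene tbx1, which marks pharyngeal and head mesoderm, had means of 261 ± 16 after the later and 13 ± 1.0 after the earlier start (log2 ratio -3.89 ± 0.11, adjusted p = 7e-06). For hand2, a bHLH gene of cardiac and lateral plate mesoderm, they were 453 ± 16.7 and 157 ± 14.3 (log2 ratio -1.50), and for the lateral and intermediate mesoderm gene osr1 294 ± 14.8 and 66 ± 19.7 (log2 ratio -2.07). Both genes were called lower with sphere-treated means well above 0. Outside this list, the homeobox gene prrx1a of lateral plate mesenchyme stood at 184 ± 19.0 and 10 ± 3.93 (log2 ratio -3.66). twist1a, a bHLH gene of mesenchyme and also no member of the list, stood at 239 ± 1.53 and 26 ± 3.28 (log2 ratio -2.98). The member of the list called higher was bmp4, at 636 ± 26.7 and 845 ± 8.95, which is also a ligand of ventral and epidermal tissue.

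Early regulators of blood and endothelium were among the lower genes. Of 28 measured, 8 were called lower, 7 of them at least 2-fold, and 1 higher (4 higher at an unadjusted p under 0.05), against 8.78% lower and 5.91% higher over all records. The other 19 lay between -0.25 and 0.79 and were not called, and the median log2 ratio of the list was -0.16. The stem cell leukemia gene tal1, required for blood formation, stood at 610 ± 47.8 against 80 ± 26.9 (log2 ratio -2.86 ± 0.36, adjusted p = 0.00941). Its partner lmo2 stood at 720 ± 69.3 against 155 ± 28.3, the endothelial ETS factor etsrp at 675 ± 43.4 against 106 ± 42.4, and the related fli1 at 400 ± 21.5 against 76 ± 20.3 (log2 ratios -2.18, -2.61 and -2.32). tmem88a was at 127 ± 6.03 against 6 ± 3.46 and gfi1aa, a zinc finger repressor of the erythroid lineage, at 120 ± 8.14 against 15 ± 9.96. The sphere-treated means of gfi1aa and tmem88a carried relative errors of 66.4% and 57.7%. The member called higher was cpox, an enzyme of heme synthesis (375 ± 27.9 against 671 ± 41.6).

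Matrix genes of the notochord sheath were prominent among the lower notochord genes. Of 20 measured, 9 were called lower, 7 of them at least 2-fold, and 2 higher, against 8.78% lower and 5.91% higher over all records. The matrix gene emilin3a had means of 1385 ± 229 and 133 ± 54.9 (log2 ratio -3.33 ± 0.48, adjusted p = 0.0122), and its paralog emilin3b of 145 ± 25.4 and 12 ± 2.85 (log2 ratio -3.14). Collagen genes were called lower as well: col2a1a stood at 886 ± 146 against 158 ± 20.8, col8a1a at 330 ± 47.5 against 99 ± 10.5, and col9a1b at 101 ± 9.54 against 12 ± 4.81. The homeobox gene noto, which keeps axial cells in the notochord fate, was at 423 ± 17.4 against 316 ± 60.7 and was not called (log2 ratio -0.42, adjusted p = 0.225). The 2 members called higher, lama5 and plod1a, code for a laminin chain and a collagen lysyl hydroxylase and are not limited to notochord. Among all 54 collagen, laminin and integrin genes, 10 were called lower and 5 higher, and the higher set included itga6b (960 ± 50.6 against 1759 ± 101), an epithelial integrin chain.

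The floor plate, endoderm and kidney lists held a few strongly lower genes beside many that were not called. For comparison, 8.78% of all records were called lower and 5.91% higher. Of 19 floor plate and Hedgehog response genes 8 were called lower and 0 higher by limma, and of 18 endoderm genes 4 and 0 (1 and 4 higher at an unadjusted p under 0.05). Without moderation these counts of lower genes were 0 and 1, and that of the pronephros list was 0. The endodermal factor sox17 stood at 45 ± 5.51 against 4 ± 1.86 (log2 ratio -2.47), and foxa2, of floor plate and endoderm, at 195 ± 19.2 against 45 ± 21.2 (log2 ratio -2.00). foxj1a, the main activator of motile cilia genes, stood at 286 ± 24.1 against 99 ± 20.1 (log2 ratio -1.48), while of the 17 cilia genes measured only it and foxj1b were called lower. The Hedgehog target ptch1 was not called, at 563 ± 22.4 and 524 ± 26.0. In the pronephros list, 3 of 12 were called lower, among them hnf1bb at 560 ± 22.1 against 111 ± 27.5 (log2 ratio -2.28), whereas pax8 (740 ± 30.3 against 533 ± 82.0) and pax2a (1573 ± 69.1 against 1569 ± 113) were not called.

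Of 16 genes of muscle structure and contraction, 7 were called lower and 0 higher by limma (1 higher at an unadjusted p under 0.05), and without moderation 0 were called lower. The slow myosin gene smyhc1 stood at 522 ± 105 against 67 ± 24.9 (log2 ratio -2.87 ± 0.44, adjusted p = 0.0146), and the actin gene acta1a at 348 ± 61.1 against 84 ± 26.2 (log2 ratio -1.99). Of 20 muscle regulators 3 were called lower, against 8.78% of all records, and without moderation 0. The myogenic factor myod1 was one of them, at 264 ± 21.1 against 77 ± 24.3 (log2 ratio -1.71), while its relative myf5, at 885 ± 52.0 against 698 ± 124, was not called (log2 ratio -0.34, adjusted p = 0.294).

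**Figure D2:**
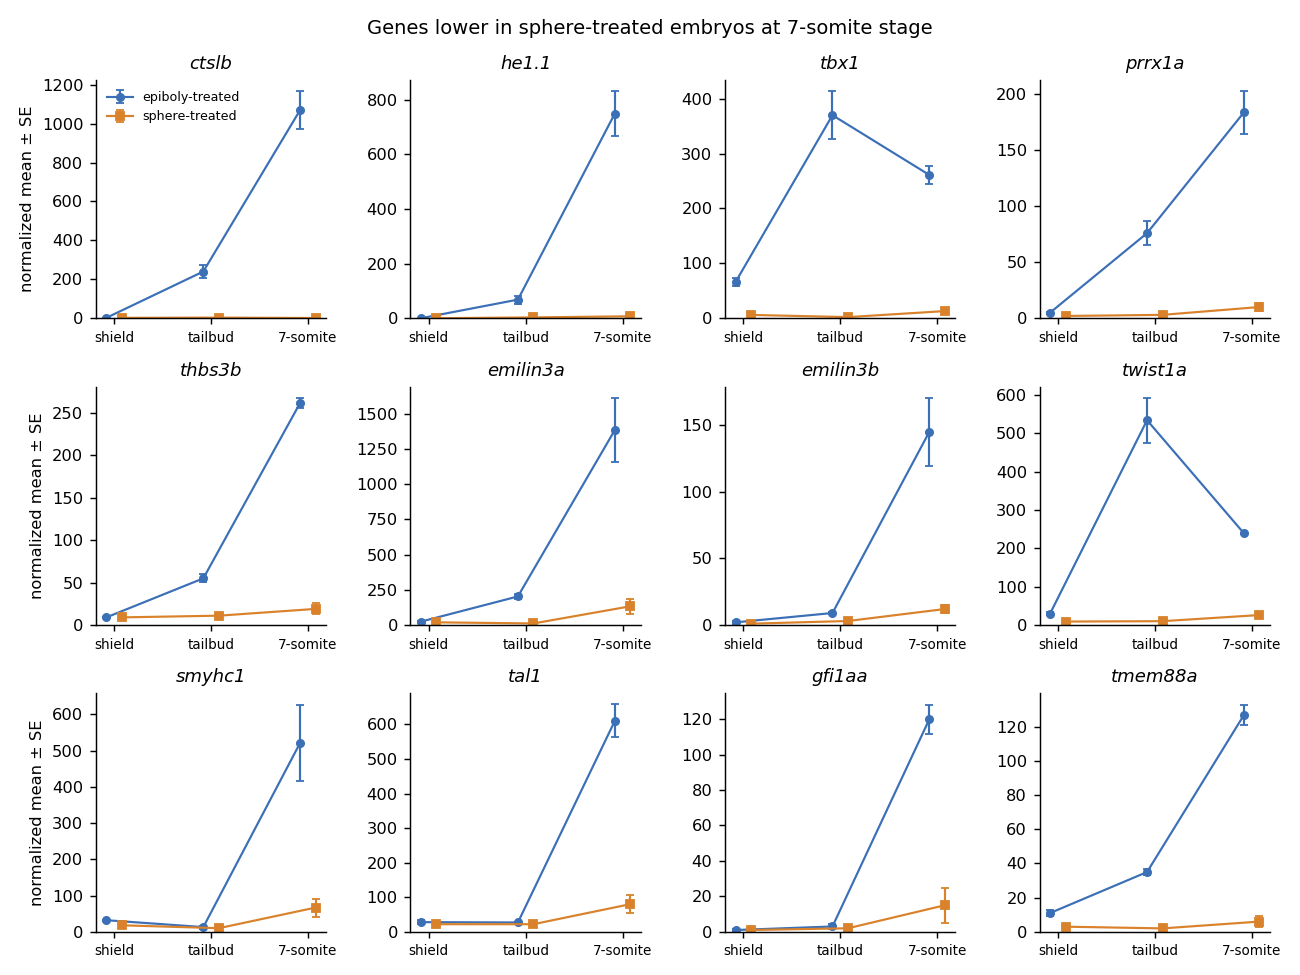
Normalized group means ± SE of 12 genes lower in sphere-treated embryos at 7-somite stage, at the 3 harvest stages on the x axis, with blue circles for epiboly-treated and orange squares for sphere-treated embryos. In epiboly-treated embryos tal1, smyhc1, gfi1aa and emilin3b were still low at tailbud and high at 7-somite stage, whereas tbx1 and twist1a were already high at tailbud.

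Many genes of the presomitic mesoderm were strongly lower at tailbud, and their ratios lay nearer 0 at 7-somite stage. At tailbud 9 of the 32 measured were called lower and 0 higher by limma (20 and 0 at an unadjusted p under 0.05). Over all records 1.71% were called lower at tailbud, 0.255% higher and 1.97% in either direction. The median log2 ratio of the list was -0.82. At 7-somite stage 3 were called lower and 4 higher, against 8.78% and 5.91% of all records, with a median of -0.13. The balance at 7-somite stage depended on the variance model. Lower and higher counts were 8 and 5 with moderation towards a trend on level, 5 and 1 with pooled spread, and 0 and 2 without moderation. For 13 of the 32 the ratio itself was higher at 7-somite stage than at tailbud by the test of that difference, against 1.31% of all records. Outside this list, tbx1 and twist1a also had ratios nearer 0 than at tailbud. Their differences were 1.86 and 2.19 (adjusted p = 0.00296 and 0.0046 by the limma test), and both stayed called lower. The T-box gene tbx6 of the presomitic mesoderm had sphere-treated means of 98 ± 50.5 at tailbud and 2373 ± 534 at 7-somite stage. In epiboly-treated embryos its means were 1731 ± 148 and 2728 ± 197. Its difference between the log2 ratios was 3.87 ± 0.69 (adjusted p = 0.0209). ripply1, which ends presomitic gene activity at the forming somite, had sphere-treated means of 20 ± 0.882 and 375 ± 109, next to 509 ± 37.2 and 775 ± 42.0 (difference 3.32, adjusted p = 0.00296). meox1, a homeobox gene of the somite, had a difference of 3.25 (adjusted p = 0.0179). The sphere-treated 7-somite means of these genes were imprecise, with relative errors of 22.5% for tbx6 and 29.1% for ripply1, and neither was called at that stage (adjusted p = 0.627 and 0.0743).

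Enzymes of retinoic acid synthesis, a signal that somites produce, also had ratios nearer 0 than at tailbud. aldh1a2, the synthesizing dehydrogenase, had sphere-treated means of 83 ± 22.4 at tailbud and 483 ± 141 at 7-somite stage, next to 1209 ± 119 and 578 ± 21.0 in epiboly-treated embryos (difference 3.53, adjusted p = 0.00725). For rdh10a, which supplies its substrate, the difference was 3.71 (adjusted p = 0.00727), with 7-somite means of 784 ± 13.7 and 596 ± 114. The BMP and activin antagonist gene fsta had a difference of 3.71 as well, but stayed called lower (1575 ± 60.5 against 569 ± 168, log2 ratio -1.46), and the homeobox gene lbx2 had one of 3.32. The epiboly-treated mean of rdh10a was 2085 ± 234 at tailbud, so for aldh1a2 and rdh10a that mean was lower at the later stage, while the sphere-treated mean was higher.

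Over all records the ratio was lower at 7-somite stage than at tailbud in 96 (0.721%) and higher in 174. The largest negative differences under the naming rule were he1.2 (-3.75), ctslb.4 (-3.55), he1.1 (-2.78), tal1 (-2.61), ctslb (-2.55) and emilin3b (-2.33). tal1 was at 27 ± 1.0 and 22 ± 2.96 at tailbud and at 610 ± 47.8 and 80 ± 26.9 at 7-somite stage, in the order epiboly-treated and sphere-treated. Of the 113 records called at least 2-fold lower at 7-somite stage, 62 had been called lower at tailbud and 0 higher. By the test of the difference, 25 of the 113 had a lower ratio than at tailbud and 11 a higher one. Of the 79 called at least 2-fold higher, 4 had been called higher at tailbud and 1 lower. Tailbud calls over all records were 1.71% lower and 0.255% higher. At shield 33 of the 113 had been called lower and 9 higher, and 18 of the 79 higher and 18 lower. Shield calls over all records were 19.8% lower and 20.4% higher.

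**Figure D3:**
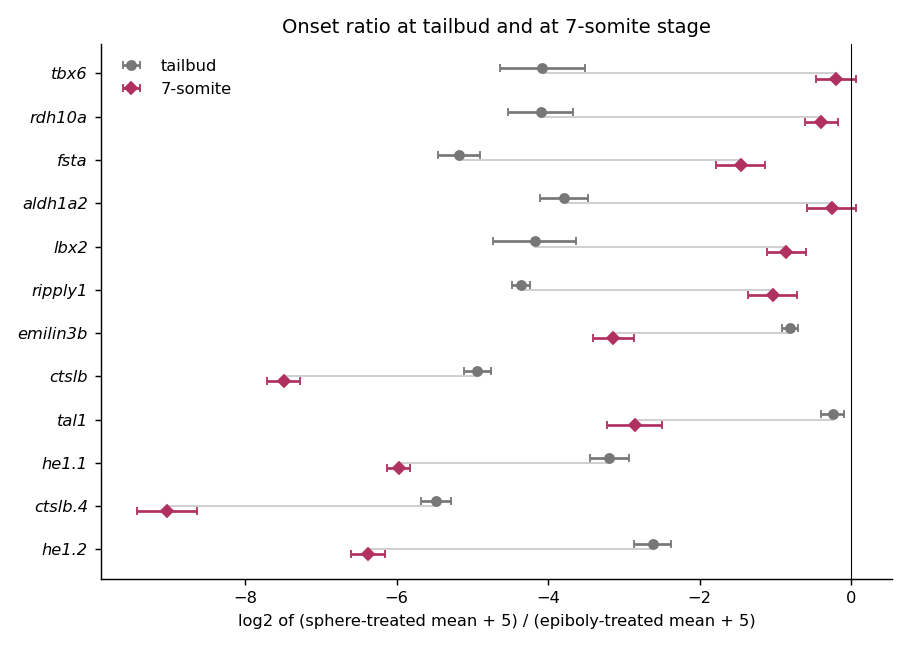
Log2 ratio of sphere-treated over epiboly-treated means, each mean with 5 added, at tailbud (grey circles) and 7-somite stage (red diamonds) for the 12 genes with the largest tested difference under the naming rule, with bars of ± 1 SE. The 6 upper genes lie nearer 0 at 7-somite stage and the 6 lower genes lie further from it.

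The gene with the highest ratio of all records belonged to the low-oxygen response. In this response, prolyl hydroxylases tag the alpha subunit of hypoxia-inducible factor (HIF) for destruction while oxygen is present, and HIF in turn induces some of these hydroxylases, enzymes of glycolysis and collagen hydroxylases. Of 50 genes measured 19 were called higher, 11 of them at least 2-fold, and 2 lower, with a median log2 ratio of 0.40. Over all records 5.91% were called higher, 8.78% lower and 0.593% called at least 2-fold higher, with a median of -0.02. The hydroxylase gene egln3 had means of 90 ± 30.6 after the later and 2223 ± 400 after the earlier start (23.5-fold, log2 ratio 4.55 ± 0.41, adjusted p = 0.00281). For its relative egln2 they were 125 ± 5.84 and 736 ± 43.9 (log2 ratio 2.51), and for egln1b 501 ± 27.7 and 676 ± 17.7 (log2 ratio 0.43).

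Further members covered several steps of the response. vhl, which recognizes hydroxylated HIF, stood at 106 ± 13.9 against 219 ± 19.1 (log2 ratio 1.01), and hif1an, which blocks HIF activity, at 724 ± 32.8 against 1634 ± 89.1 (log2 ratio 1.17). The collagen prolyl hydroxylase genes p4ha1b and p4ha2 stood at 1164 ± 120 against 4806 ± 304 and at 745 ± 57.7 against 1696 ± 131. Typical HIF targets in mammals were also among the called genes, with ndrg1a at 227 ± 33.6 against 725 ± 72.1 and ankrd37 at 189 ± 61.9 against 610 ± 82.6. The 2 members called lower were higd1a (291 ± 11.9 against 185 ± 17.9), a mitochondrial protein gene, and plod2 (860 ± 39.0 against 332 ± 83.3), which is also expressed in notochord. At tailbud 1 of the 50 was called higher and 2 lower by limma, against 0.255% and 1.71% of all records. At an unadjusted p under 0.05 the tailbud counts were 12 higher and 7 lower, against 836 and 1136 of 13274 genes. The gene called higher at tailbud was egln3, with a log2 ratio of 1.66 (adjusted p = 0.00612). There egln2 had a log2 ratio of 1.15 and was not called (adjusted p = 0.0786). At shield 9 of the 50 were called higher and 8 lower. Of all records 20.4% were called higher at shield, 19.8% lower and 40.2% in either direction. The ratio was higher at 7-somite stage than at tailbud in 10 of the 50.

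Of 32 glycolysis genes measured 16 were called higher, 10 of them at least 2-fold, and 1 lower, with a median log2 ratio of 0.68. The shares over all records were 5.91% higher, 8.78% lower and 0.593% called at least 2-fold higher. At tailbud 0 of the 32 were called in either direction by limma (7 higher and 1 lower at an unadjusted p under 0.05), against 1.97% of all records. At shield 7 were called higher and 13 lower, against 20.4% and 19.8% of all records. pfkfb3, whose product makes the activator of phosphofructokinase, stood at 142 ± 13.1 against 1277 ± 250 (8.72-fold, adjusted p = 0.00169). In the order of the pathway, the aldolase gene aldocb stood at 97 ± 15.4 against 629 ± 74.0, the phosphoglycerate kinase gene pgk1 at 173 ± 14.2 against 817 ± 63.3, and the lactate dehydrogenase gene ldha at 148 ± 13.4 against 610 ± 79.4. The lactate exporter gene slc16a3b, a member of this list and of the low-oxygen list, stood at 112 ± 0.667 against 347 ± 23.4 (log2 ratio 1.59). The more abundant gapdh, at 1277 ± 61.1 against 2244 ± 399, had a log2 ratio of 0.81. The member called lower was pfkfb4b (1740 ± 145 against 1209 ± 68.4). In 7 of the 32 the ratio was higher than at tailbud by the test of the difference.

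**Figure D4:**
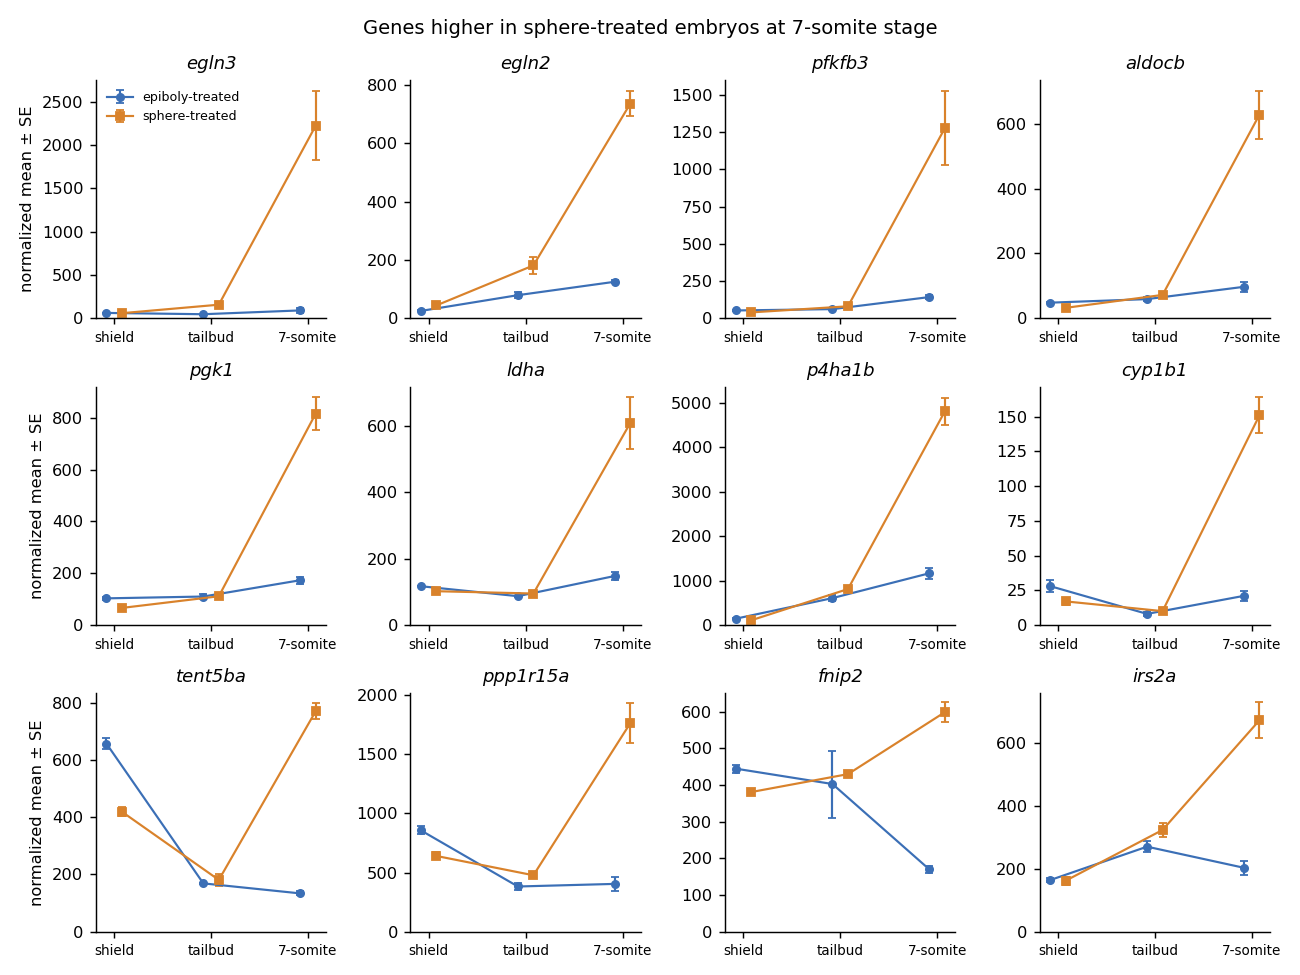
Normalized group means ± SE of 12 genes higher in sphere-treated embryos at 7-somite stage, at the 3 harvest stages on the x axis, with blue circles for epiboly-treated and orange squares for sphere-treated embryos. For pfkfb3, aldocb, pgk1, ldha and cyp1b1 the sphere-treated mean was the lower at shield and the higher at 7-somite stage. Of these genes only aldocb and pgk1 were called at shield, and none was called at tailbud.

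Other genes with the largest positive ratios belonged to varied pathways. cyp1b1, a cytochrome gene induced by the aryl hydrocarbon receptor, stood at 21 ± 3.46 against 151 ± 12.8 (log2 ratio 2.58 ± 0.18, adjusted p = 0.00108), and cyp1a, the classic target of that receptor, at 123 ± 13.1 against 326 ± 23.3 (log2 ratio 1.37). They were the 2 called of 8 measured genes of that response. ppp1r15a, a regulatory subunit that restores translation after stress, stood at 405 ± 62.4 against 1764 ± 172, and irs2a, an adaptor of the insulin receptor, at 203 ± 21.5 against 671 ± 56.3. tent5ba (134 ± 6.89 against 770 ± 28.5), of a family of poly(A) polymerases, and fnip2 (170 ± 8.54 against 599 ± 28.0), a partner of folliculin, were also among the 15 highest, as were rpgra, chka and adora2ab. Of 36 genes of the list of cell stress, apoptosis and heat shock, measured beside these, 2 were called higher (sesn3 and casp8) and 2 lower (atf4b and ier2a). The shares over all records were 5.91% and 8.78%. The other 32 were not called, with log2 ratios of -0.58 to 2.04, so the highest ratio of this list was that of a gene not called.

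Genes of the yolk syncytial layer, the nutrient-supplying layer under the embryo, had high ratios with large errors. Of 32 measured, 30 had a higher mean in sphere-treated embryos and the median log2 ratio was 0.75. Only apoc2 (665 ± 43.5 against 1199 ± 135) and apoa1a (11464 ± 691 against 20149 ± 3420) were called, both higher, against 5.91% of all records. That count rested on the variance model, with 13 called higher under moderation towards a trend on level, 9 higher and 1 lower with pooled spread, and 0 without moderation. The apolipoprotein B gene apobb.1 stood at 11702 ± 537 against 23659 ± 9190 (log2 ratio 1.02, adjusted p = 0.145), and the lipid transfer gene mttp at 184 ± 23.7 against 655 ± 314 (log2 ratio 1.80, adjusted p = 0.067). The median relative error of the list was 6.54% after the later start and 21.1% after the earlier one. Over all records, 149 were at least 2-fold higher by size alone (1.12%), of which 79 were called, and 120 were at least 2-fold lower (0.901%), of which 113 were called.

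A further set of genes differed little in size but in many members. For comparison, 8.78% of all records were called lower at 7-somite stage and 5.91% higher. Of 95 genes of oxidative phosphorylation 45 were called lower and 0 higher by limma (0 higher at an unadjusted p under 0.05), with 90 ratios below 0 and a median log2 ratio of -0.32. The largest difference among those called was that of the ATP synthase gene atp5mc3a, at 2162 ± 88.3 against 1208 ± 26.9 (log2 ratio -0.84, adjusted p = 0.00356), and the complex I gene ndufa13 stood at 724 ± 18.6 against 494 ± 9.82 (log2 ratio -0.55). Of 57 DNA replication genes 27 were called lower and 0 higher by limma (0 higher at an unadjusted p under 0.05), with a median of -0.31. The replication clamp gene pcna stood at 15285 ± 447 against 10362 ± 422, the helicase gene mcm5 at 8021 ± 106 against 5340 ± 131 and the nucleotide enzyme gene dut at 1891 ± 82.3 against 1138 ± 32.7. Of 57 mitosis genes 1 was called lower (wee1), with a median of -0.06. Of 47 proteasome genes 16 were called lower, and of 80 cytosolic ribosomal protein genes 14, with medians of -0.29 and -0.23. At tailbud 0 genes of the oxidative phosphorylation, DNA replication and ribosomal protein lists were called by limma (10, 0 and 0 lower at an unadjusted p under 0.05). Few records were called at that stage, 1.97% of all. By the test of the difference, the ratio was lower at 7-somite stage than at tailbud in 1, 1 and 0 genes of these lists. That was so for 0.721% of all records, so a change between the stages was not shown for these lists. At shield 24 oxidative phosphorylation genes were called higher and 8 lower, 15 DNA replication genes higher and 8 lower, and 35 ribosomal protein genes higher and 0 lower. There 20.4% of all records were called higher and 19.8% lower.

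The counts of these lists depended on the scaling and on the variance model. With equal totals the counts called lower fell from 45 to 26 for oxidative phosphorylation, from 27 to 19 for DNA replication, from 16 to 9 for the proteasome and from 14 to 2 for ribosomal proteins. The medians stayed below 0, at -0.26, -0.25, -0.23 and -0.17. With moderation towards a trend on level the counts were 54, 34, 29 and 62, with the spread pooled over the 6 groups 54, 32, 31 and 24, and without moderation 22, 11, 7 and 4.

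**Figure D5:**
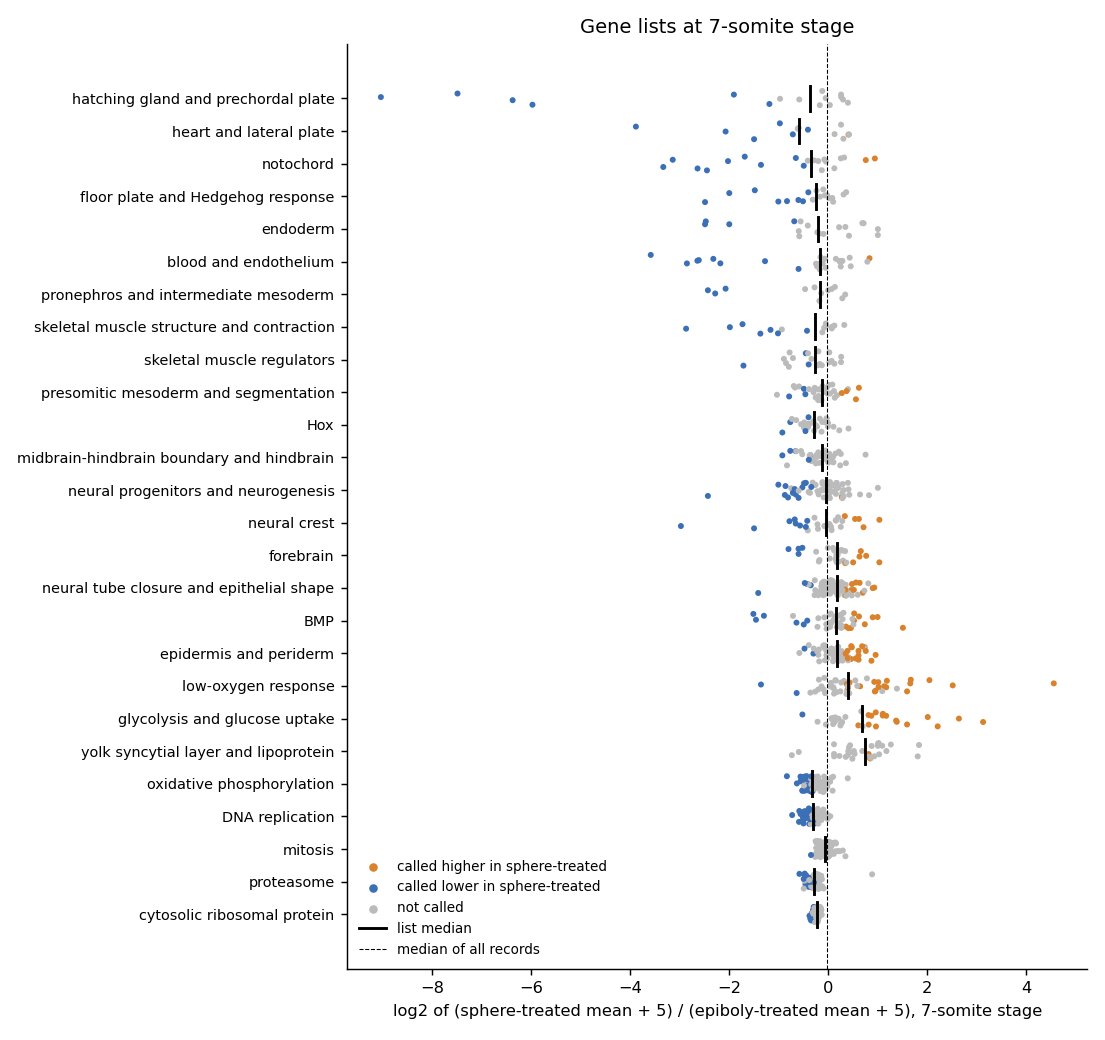
Log2 ratio of sphere-treated over epiboly-treated means at 7-somite stage (x axis) for the genes of 26 lists (rows), each point 1 gene, orange if called higher, blue if called lower and grey if not called. Black bars mark list medians and the dashed line the median of all records, and a gene may stand in several lists. Several mesodermal lists hold single points far to the left, while the oxidative phosphorylation and DNA replication points lie close together left of the line.

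Some regional neural genes were lower, and the general neural markers were not called. sox2 stood at 2010 ± 66.4 against 2160 ± 120, sox3 at 3628 ± 89.3 against 3116 ± 239, and the neuronal gene elavl3 at 1681 ± 150 against 1728 ± 74.9. Of the 61 genes of neural progenitors and neurogenesis 13 were called lower and 1 higher, against 8.78% and 5.91% of all records. The lower count was 16 with moderation towards a trend on level, 8 with pooled spread and 3 without moderation. The lower genes included lhx1a (200 ± 13.4 against 33 ± 15.8), which is also expressed in intermediate mesoderm, and the ventral progenitor genes nkx6.1 (313 ± 26.6 against 153 ± 31.1) and nkx6.2 (352 ± 11.3 against 191 ± 26.1). In the forebrain list 6 of 32 were called higher and 4 lower. These counts were 8 and 4 with the trend on level, 1 and 1 with pooled spread, and 2 and 0 without moderation. The higher genes included dlx2a (89 ± 1.86 against 187 ± 13.3, log2 ratio 1.03), hesx1 and fezf2, and the lower ones irx3a (940 ± 50.8 against 618 ± 20.5) and nr2f1a.

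Genes of hindbrain and trunk position were lower or not called. Of 28 Hox genes 4 were called lower and 0 higher by limma (0 higher at an unadjusted p under 0.05), and 25 had ratios below 0 (median -0.29, between -0.30 and -0.23 over the settings tried). Without moderation 0 Hox genes were called. hoxb2a stood at 172 ± 6.66 against 88 ± 9.21 (log2 ratio -0.93, adjusted p = 0.0123), and hoxc8a at 1365 ± 14.3 against 990 ± 51.9 (log2 ratio -0.46). In the list of the midbrain-hindbrain boundary and hindbrain 5 of 38 were called lower, among them gbx2 (760 ± 20.1 against 479 ± 34.7), while the rhombomere gene egr2b (1139 ± 47.9 against 886 ± 55.6) was not called. The share called lower at 7-somite stage over all records was 8.78%. The lower count of the hindbrain list was 9 with moderation towards a trend on level, 1 with the spread pooled over the 6 groups and 1 without moderation. At tailbud the medians of these lists had been further from 0, at -0.78 and -0.55, with 5 and 6 genes called lower, against 1.71% of all records. By the test of the difference, the ratio was higher at 7-somite stage in only 1 of 28 and 1 of 38 genes, against 1.31% of all records.

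Neural crest genes went in both directions, with 8 of 29 called lower and 5 higher, against 8.78% and 5.91% of all records. The lower set held twist1a and sox10, a factor of migrating crest (720 ± 77.4 against 448 ± 28.2), and crestin (587 ± 49.8 against 370 ± 27.6). The higher set held the border and ectodermal genes tfap2c (6367 ± 279 against 9255 ± 372), msx2b (215 ± 6.25 against 355 ± 8.62) and dlx2a. Early crest regulators foxd3 (1091 ± 44.7 against 898 ± 46.1) and tfap2a (3998 ± 85.2 against 4861 ± 180) were not called.

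For genes connected with neural tube closure and epithelial shape, 12 of 78 were called higher and 4 lower, against 5.91% and 8.78% of all records. The median log2 ratio was 0.17. With equal totals 19 were called higher and 3 lower. The counts were 26 and 7 with moderation towards a trend on level, and 2 and 1 without moderation. For all 13321 records the counts were 1161 and 732 with equal totals, 1260 and 1792 with the trend, and 245 and 451 without moderation. The called genes did not form 1 function. Higher were, among others, the non-muscle myosin gene myh9a (6097 ± 232 against 9866 ± 1403), the Shroom family gene shroom4 (2399 ± 39.8 against 3431 ± 197), the polarity gene pard3ab (790 ± 67.1 against 1102 ± 19.8) and the planar polarity receptor gene ptk7a (580 ± 17.6 against 739 ± 19.1). Lower were the mesenchymal cadherin gene cdh11 (1534 ± 41.4 against 572 ± 97.3, log2 ratio -1.42, adjusted p = 0.0119), the actin-severing gene cfl1 and the folate-dependent enzyme genes tyms and dhfr, which are also replication genes. The neural cadherin gene cdh2 stood at 11043 ± 318 against 10285 ± 525 and was not called. Of 41 planar polarity genes 3 were called higher and 2 lower, with the Wnt ligand gene wnt11 at 974 ± 63.6 against 551 ± 44.8 and vangl2 not called at 1928 ± 53 against 1815 ± 55.9.

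Part of the epidermal genes were higher. Of 67 measured 17 were called higher and 2 lower, against 5.91% and 8.78% of all records. The median log2 ratio was 0.18, against -0.02 over all records, and 0 called members were past 2-fold. Without moderation 4 were called higher and 0 lower. tp63, the main regulator of epidermal fate, stood at 2211 ± 128 against 3378 ± 171 (log2 ratio 0.61, adjusted p = 0.0196), anxa1a at 3785 ± 403 against 7339 ± 616, and the epithelial cadherin gene cdh1 at 3192 ± 134 against 4398 ± 249. The abundant keratin genes krt4 (119686 ± 2200 against 129379 ± 4369) and krt5 (67957 ± 1763 against 72522 ± 2380) were not called.

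Of 42 BMP pathway genes measured 10 were called higher and 6 lower, against 5.91% and 8.78% of all records. These counts were 16 and 6 with moderation towards a trend on level, 11 and 5 with pooled spread, and 4 and 1 without moderation. The higher genes included bmp4, bmp7a (1163 ± 50.8 against 1940 ± 106), bambia (2155 ± 58.4 against 2956 ± 11.4) and szl, a secreted feedback regulator that marks ventral tissue (1250 ± 94.0 against 3558 ± 194, log2 ratio 1.51 ± 0.12, adjusted p = 0.00186). They also included bmper, a secreted BMP-binding modulator (622 ± 11.3 against 1162 ± 111, log2 ratio 0.90), so secreted regulators went both ways. Among the lower genes were secreted antagonists: chrd stood at 5209 ± 350 against 3691 ± 256 (log2 ratio -0.50), nog1 at 298 ± 20.7 against 189 ± 15.2 (log2 ratio -0.64), and fsta as given above. The target gene id1 was not called, at 8611 ± 390 against 7489 ± 131, and id3 was called lower, at 1835 ± 26.3 against 1365 ± 34.9.

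Genes of the Nodal pathway itself were mostly not called at this stage. Of 25 measured, 1 was called higher, the receptor gene acvr2aa (403 ± 8.09 against 574 ± 39.3), and 1 lower. Of 49 Wnt genes 7 were called lower and 1 higher, lef1 (781 ± 37.7 against 1137 ± 52.8), and of 29 FGF genes 3 were called lower, with fgfrl1b at 343 ± 5.46 against 61 ± 4.58 (log2 ratio -2.40, adjusted p = 5.8e-05). Of 32 germ cell and maternal genes 3 were called lower and 0 higher by limma (4 higher at an unadjusted p under 0.05), with tdrd1, a germ granule gene, at 52 ± 3.84 against 32 ± 2.33 and nanos3, a germ cell gene that was not called, at 209 ± 12.7 against 207 ± 9.39. Of all records 5.91% were called higher and 8.78% lower, and the lower counts of the FGF and germ cell lists lie near the latter share.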

How the data were processed

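RNA of whole embryos was sequenced after RNeasy isolation and TruSeq RNA v2 library preparation, per the labels' protocols. Per the file headers, the authors deposited group means and standard errors on an upper-quartile-normalized scale, which are scores and not raw counts. The submitters' processing notes name DESeq 1.6.1 with no role, and which aligner, counter and build were used is not given in the sources used here. The highest group mean of every record is at least 101, so genes low in every group are missing. The kit does not mark strand, so antisense partners cannot be told apart. Gene symbols came from RefSeq tables of GRCz12tu: 12182 records matched by gene identifier, 42 by accession and 1097 not at all. The deposited ratio and call columns (6) were not used.

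Of 11992 standard errors between 0 and 5, all 11992 can arise from 3 whole-number values per mean, against 1.55% of evenly spread values. The variance of log2(mean + 5) was derived from the standard errors (delta method, 4 degrees of freedom), moderated with limma 3.58.1 squeezeVar in R 4.3.3, and tested two-sided with Benjamini-Hochberg adjustment over 13321 records at 0.05. Differences between the 7-somite and tailbud ratios were tested alike with 8 degrees of freedom. The script was tested on simulated data. Named genes were the 15 called genes with the lowest and the highest ratio whose higher mean is at least 50, excluding clone names, the key and up to 6 strongest called members of each list, and the 6 largest stage differences each way; the remaining genes named in the text were chosen after their values were seen. The comparison and the gene lists were chosen with earlier results of these data known. Alternatives were pseudocounts of 1 and 20, other scalings, variance models, a minimum of 100 and 1 record per gene. Some genes are not reported here by name.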

Additional observations from a re-analysis of the deposited data

Results flagged for a closer look

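In 12 genes named by the rule, the onset effect differed between 7-somite and tailbud stage by the test of the difference itself, adjusted over all records with limma. The ratio was lower at 7-somite stage, in log2 units, by the following differences: he1.2 -3.75, ctslb.4 -3.55, he1.1 -2.78, tal1 -2.61, ctslb -2.55 and emilin3b -2.33. It was higher at 7-somite stage for tbx6 (3.87), fsta (3.71), rdh10a (3.71), aldh1a2 (3.53), ripply1 (3.32) and lbx2 (3.32). For tbx6, aldh1a2 and ripply1 the sphere-treated 7-somite means carried relative errors of 22.5%, 29.2% and 29.1%, against 7.23%, 3.63% and 5.42% in epiboly-treated embryos.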

How the results depend on the processing

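No called named gene changed the sign of its ratio under the alternatives tried, but with equal totals the majority of calls changed from lower to higher (1161 higher), and the medians of all records (0.04) and of the neural crest (0.01), neural progenitor (0.02), planar polarity and germ cell lists, all near 0, changed sign. Without moderation across records, 245 records were called higher and 451 lower (36 and 46 at 2-fold), and 94 ratios were higher at 7-somite stage than at tailbud. With moderation towards a trend on level, 1260 were called higher and 1792 lower, 132 were at least 2-fold higher, and 210 ratios were lower than at tailbud. With the spread pooled over the 6 groups, 124 were at least 2-fold higher. With equal totals, 732 were called lower, 54 ratios were lower than at tailbud, and the counts lower were 26 for oxidative phosphorylation, 9 for the proteasome and 2 for ribosomal proteins (6 with the median ratio at 0), while 19 neural tube closure genes were called higher. Without moderation the lists of low-oxygen response and glycolysis had 9 and 8 genes called higher, and those of hatching gland, notochord, blood and heart had 5, 3, 2 and 2 called lower. The lists of neural tube closure and epidermis had 2 and 4 called higher under the same setting. For these counts the cause was not tested. Of 181 called named genes, 130 were called the same way under the 6 alternatives other than no moderation, and 64 also without it. No paired analysis was possible because the table holds means and not the values behind them, and for that reason no replicate could be left out. Depth is unknown, and the number of 3 values per mean, on which every p-value rests, was inferred.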

Other observations

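Several groups of genes not described above held calls in both directions at 7-somite stage. Over all records 5.91% were called higher and 8.78% lower. The solute carrier counts below lie near these shares, and the other lists are small. Of 186 solute carrier genes 14 were called higher and 11 lower, with slc16a9b, a monocarboxylate transporter family gene, at 342 ± 22.8 in epiboly-treated against 617 ± 32.1 in sphere-treated embryos, and slc25a25a, a mitochondrial carrier gene, at 230 ± 26.1 against 97 ± 6.08. Among 28 preplacodal and placode genes 3 were called higher, including eya4 (55 ± 3.53 against 103 ± 6.66), and 3 lower, including six1b (176 ± 4.16 against 127 ± 6.43). The eye field list had 1 higher, tbx2a (666 ± 14.7 against 981 ± 97.6), and 1 lower, meis1b (2883 ± 132 against 2192 ± 114), of 16, and the eye field gene rx3 stood at 1330 ± 68.4 against 1563 ± 102 and was not called. Among 29 genes of the tailbud and posterior body 4 were called higher, among them cdx1a (2120 ± 23.1 against 3020 ± 209), and 1 lower, tbxtb (192 ± 11.7 against 120 ± 11.7). Of 21 claudin genes 2 were called higher and 2 lower, with cldni at 1885 ± 6.56 against 3136 ± 208.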
